A study of Mus musculus with 24 samples.

Results

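The genes described here are nuclear-encoded subunits of the mitochondrial respiratory chain and ATP synthase in mouse heart. They were taken by a rule on gene symbols that used no values, though earlier results of these data were known. Rows of the deposited gene count table were taken whose symbol began with Nduf, a letter a, b, c, s or v and a digit. Also taken were symbols that began with Uqcr, Atp5 or Cox4 to Cox8, or were Sdha, Sdhb, Sdhc, Sdhd, Cyc1 or Cycs. Subunits with other symbols were not covered. Names with -ps, which mark pseudogenes, were left out; 4 rows carried one. The rule found 86 of 46078 rows. Of these, 83 exceeded 0.5 CPM (counts scaled per M reads of a library) in at least 6 libraries and were among the 15456 genes tested. The remaining 3 were Cox7b2, a form of a complex IV subunit, with 12 reads over all 24 libraries, and Cox8c and a second Uqcrc1 row on a patch sequence, with 0 reads each. By complex, the 83 genes were 35 of complex I, 4 of complex II, 9 of complex III, 1 for cytochrome c, 17 of complex IV, 15 of complex V, and Atp5s and Atp5sl, which carry the ATP synthase prefix and are not counted here as subunits.

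The respiratory chain sits in the inner mitochondrial membrane. Complex I oxidises NADH and complex II oxidises succinate, and both pass electrons through coenzyme Q to complex III, from which cytochrome c carries them to complex IV, where oxygen is reduced. Complexes I, III and IV pump protons as they work, and complex V, the ATP synthase, uses the return of those protons to make ATP. Heart muscle is dense in mitochondria, and its complex IV holds muscle forms of several subunits (Cox6a2, Cox7a1 and Cox8b) that other tissues replace with widely expressed forms (Cox6a1, Cox7a2 and Cox8a).

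The hearts came from 24 male mice of strain C57BL/6, 10 weeks old, with 6 in each of 4 groups; the series title gives the time only as day 5. RNA with a poly(A) tail was sequenced from the ventricular apex. DTR_PYR mice had diphtheria toxin-mediated injury and were given pyridostigmine, a drug that blocks the enzymes that break down acetylcholine. DTR_PBS mice had the same injury and the PBS vehicle. WT_PYR mice had no toxin and pyridostigmine, and WT_PBS mice had no toxin and vehicle. DTR commonly stands for diphtheria toxin receptor; the labels used here do not say which cells had it. All mice labelled DTR had the toxin and no WT mouse did, so genotype and toxin cannot be told apart, and both are meant by injury below. In tissue RNA of this kind, fewer cells of a type and less RNA per cell cannot be told apart.

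Total counts were 2.39 to 37.8 M reads in DTR_PYR, 1.88 to 36.3 M in DTR_PBS, 7.24 to 15.3 M in WT_PYR and 3.73 to 34.9 M in WT_PBS libraries. DTR_PYR 4, 5 and 6 stood apart: on the first principal component of all tested genes, which held 44.2% of the variance, they lay at -35.4, -25.6 and -20.9, next to the WT libraries at -57.2 to -35.1 and away from the other DTR libraries at 30.3 to 114. The animal tags in the titles end in U or V, and what the letter stands for is not stated in the labels. Each DTR group held 2 U and 4 V animals and each WT group 4 U and 2 V animals. The summed level of 12 cardiomyocyte markers was 30765 to 83979 CPM in DTR_PBS and 107915 to 120082 CPM in WT_PBS hearts, and none of the 12 was at 0 in a whole group. No 2 libraries held identical counts.

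Per kilobase of exon, the chain subunits of uninjured hearts spanned a wide range. The length joined the exons of all annotated transcripts of a gene. It can exceed that of the mRNA present and so lower the value and the rank. For Ndufb2, with a mean of 31.3 CPM in WT_PBS hearts, it was 5628 bases, and for Cox8b 360 bases. In WT_PBS hearts Cox6a2 was the highest of the 83, with 4774 CPM per kilobase of exon, followed by Cox8b with 2622, Atp5a1 with 1563, Atp5b with 1428 and Cox7a1 with 1287 CPM per kilobase. The lowest were Cox6b2, a form of Cox6b1 known from testis, with 1.70, Ndufb2 with 5.57, Atp5s with 5.96 and Cox4i2 with 15.9 CPM per kilobase. The widely expressed forms Cox7a2, Cox8a and Cox6a1 had 334, 234 and 148 CPM per kilobase. Together the 83 genes took 2.86 to 4.59% of counts in DTR_PYR, 2.0 to 4.15% in DTR_PBS, 4.43 to 5.68% in WT_PYR and 3.78 to 5.48% in WT_PBS libraries.

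The first comparison asks how injury without the drug (DTR_PBS minus WT_PBS) changed the chain. Most subunits were lower in injured hearts, in every complex, with a median log2 fold change of -0.83 over the 83 genes and a range of -1.60 to 0.66. By the edgeR quasi-likelihood test with Benjamini-Hochberg adjustment over all tested genes, 70 of the 83 were called lower, where 21.6% of all tested genes were called lower. Cox6a1 alone of the 83 was called higher, where 21.3% of all tested genes were called higher, and 12 passed no threshold. In 41 genes all 6 DTR_PBS hearts lay below all 6 WT_PBS hearts; this held for 11% of all tested genes. The median log2 fold change of all tested genes was 0.01, with an interquartile range of -0.51 to 0.55. Libraries were scaled with TMM, the trimmed mean of M-values. Scaling by total counts instead moved the median of all genes to 0.39 and that of the 83 genes to -0.50, with 54 called lower, where 11.4% of all tested genes were. Among the genes named below, Cycs, Cox5a, Cox6b1, Ndufa4l2 and Atp5g1 were called lower with TMM and lost the call with total counts, at log2 fold changes of -0.62, -0.50, -0.34, -0.24 and -0.39.

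**Figure D1:**
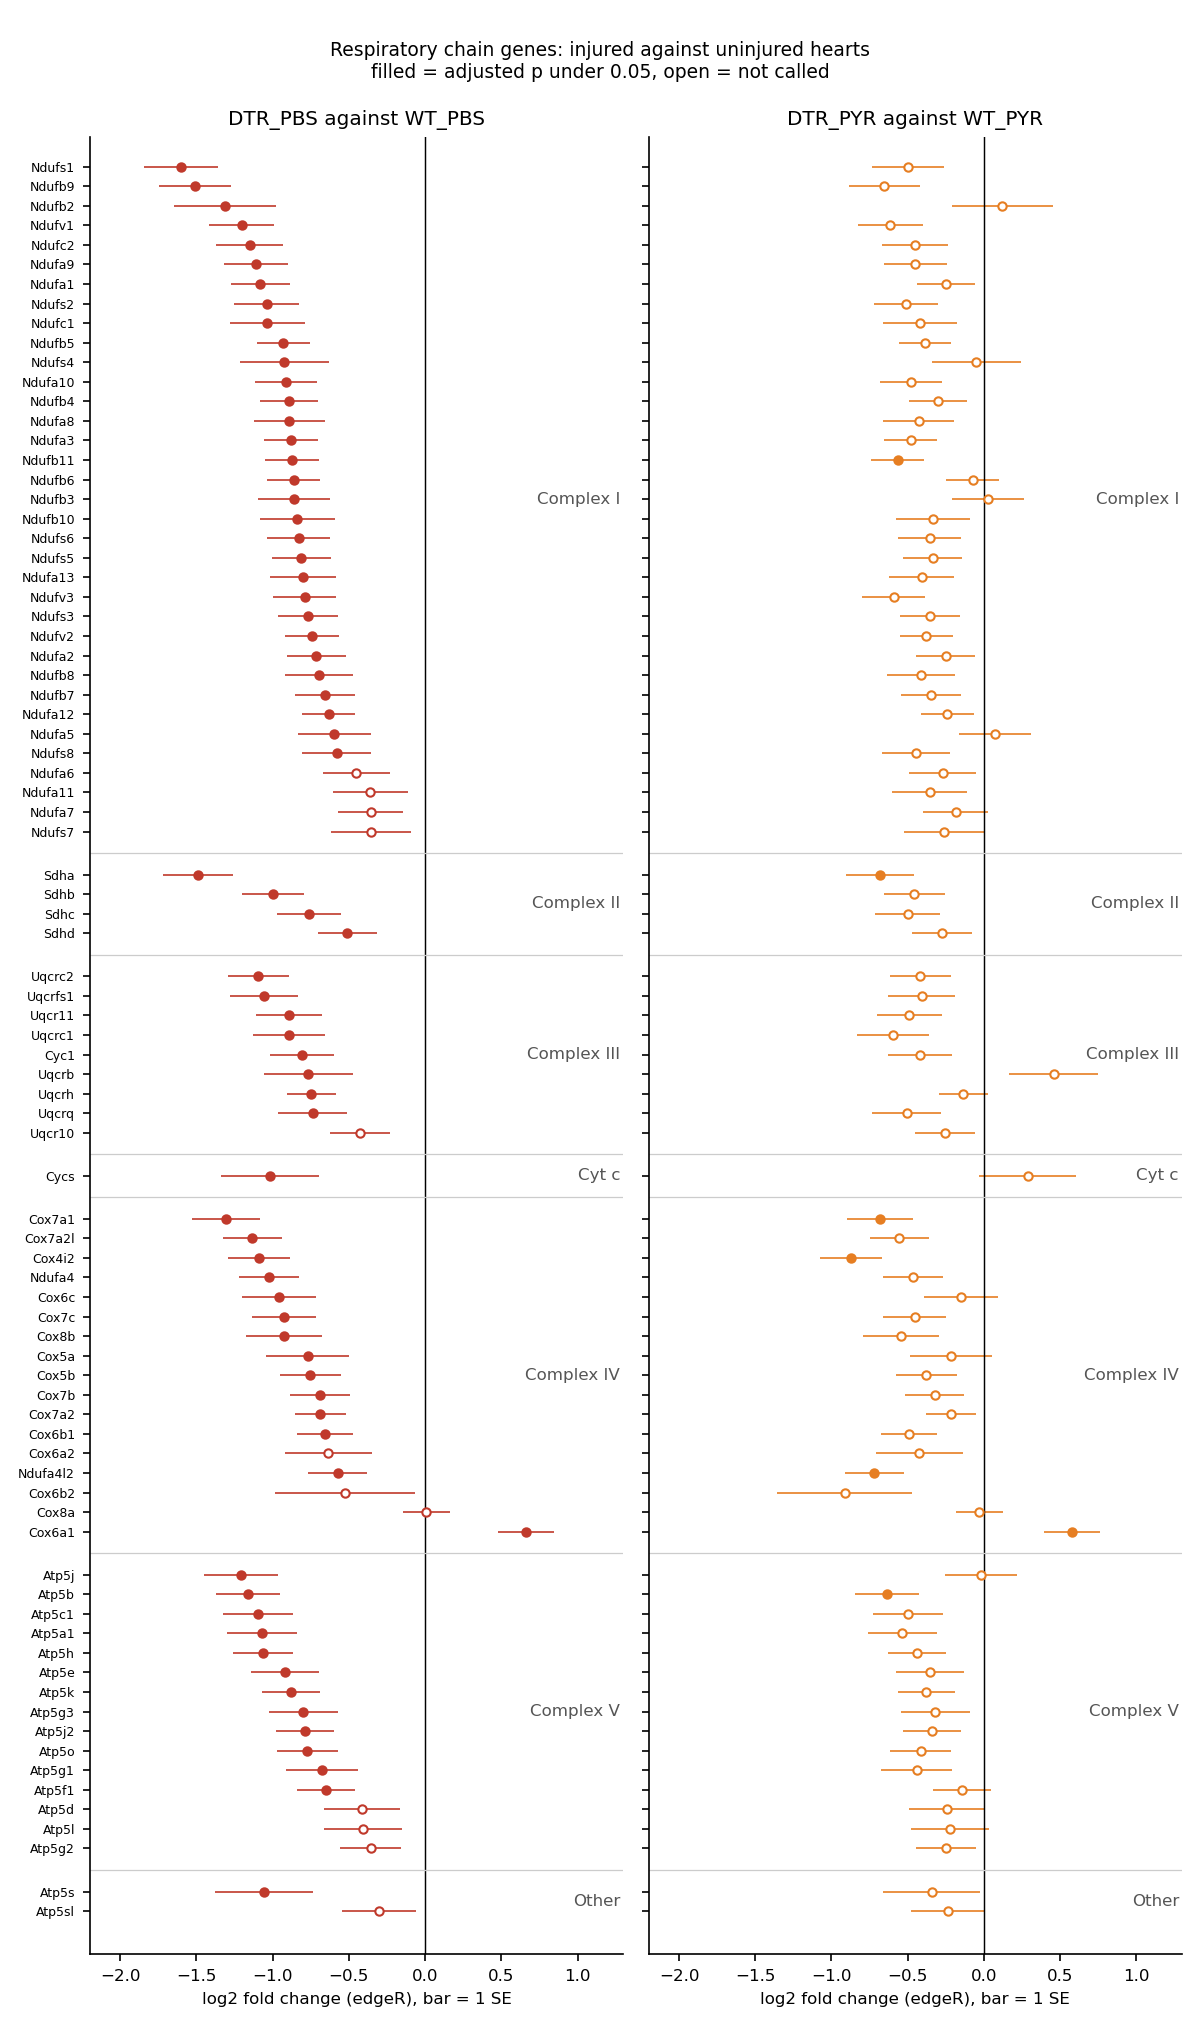
Log2 fold change of each of the 83 genes, by complex, in DTR_PBS against WT_PBS hearts (left) and in DTR_PYR against WT_PYR hearts (right); the points carry error bars of 1 standard error, and filled points passed an adjusted p of 0.05. Most points lie below 0, with Cox6a1 at 0.66 under PBS and 0.58 under PYR as the exception that passed the threshold.

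Complex I is built of a peripheral arm, which holds the flavin and iron-sulfur clusters, and a membrane arm, whose nuclear-encoded subunits surround the mitochondrially encoded proton pumps. It had 31 of 35 genes called lower and a median log2 fold change of -0.86. The membrane arm had 18 of 19 called lower (median -0.88) and the peripheral arm 13 of 16 (median -0.75). Ndufs1, the large iron-sulfur subunit of the peripheral arm (chr1:63143596-63176833, minus strand, GRCm38), had a lowest, median and highest level of 116, 150 and 188 CPM in DTR_PBS hearts, against 307, 440 and 604 CPM in WT_PBS hearts. The groups did not overlap, and the log2 fold change of -1.60 (SE 0.24, edgeR adjusted p = 3.43e-05) was the lowest of the 83. Ndufb9, a membrane-arm subunit, ran from 125 to 346 CPM with a median of 248 in DTR_PBS hearts, and from 588 to 795 CPM with a median of 682 in WT_PBS hearts. It too was lower in all 6 injured hearts than in any uninjured one (-1.51, SE 0.24, adjusted p = 4.59e-05).

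Ndufv1, which binds NADH and the flavin, had 236, 451 and 629 CPM as lowest, median and highest level in DTR_PBS hearts, against 789, 1032 and 1154 CPM in WT_PBS hearts, again without overlap (-1.20, SE 0.21, adjusted p = 0.000122). The membrane-arm subunits Ndufa1 (-1.08, adjusted p = 0.000124) and Ndufc2 (-1.15, adjusted p = 0.000215) also separated the groups. Ndufb2 had a log2 fold change of -1.31 (adjusted p = 0.00271) at a low level, with 9.31 to 19.0 CPM in DTR_PBS and 12.5 to 55.7 CPM in WT_PBS hearts, and its groups overlapped. Ndufs7, which carries the last iron-sulfur cluster before coenzyme Q, ran from 187 to 811 CPM in DTR_PBS and from 511 to 921 CPM in WT_PBS hearts, and the log2 difference of -0.35 (adjusted p = 0.294) did not pass. The other complex I genes that did not pass were Ndufa6 (-0.45, adjusted p = 0.105, which passed at -0.60 without DTR_PBS 5 or DTR_PBS 6), Ndufa7 (-0.36, adjusted p = 0.185) and Ndufa11 (-0.36, adjusted p = 0.249).

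Complex II, the only complex encoded wholly in the nucleus, had all 4 genes called lower, with a median of -0.88. Sdha, the flavoprotein that oxidises succinate (chr13:74322254-74350280, minus strand, GRCm38), had a lowest, median and highest level of 373, 504 and 706 CPM in DTR_PBS hearts, against 1219, 1419 and 1894 CPM in WT_PBS hearts. The highest injured heart was thus below the lowest uninjured one (-1.49, SE 0.23, adjusted p = 3.77e-05). Sdhb, the iron-sulfur subunit, gave -0.996 (adjusted p = 0.000378), and the membrane anchors Sdhc and Sdhd gave -0.76 (adjusted p = 0.00512) and -0.51 (adjusted p = 0.0355), with overlap for both anchors.

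In complex III 8 of 9 genes were called lower (median -0.81). Uqcrfs1, the Rieske iron-sulfur protein, ranged from 210 to 497 CPM with a median of 316 in DTR_PBS hearts, and from 588 to 755 CPM with a median of 675 in WT_PBS hearts. Its groups did not overlap (-1.06, SE 0.22, adjusted p = 0.000494), and neither did those of Uqcrc2, a core subunit (-1.1, adjusted p = 0.000155), of Uqcrh, the hinge protein (-0.75, adjusted p = 0.000684), and of Cyc1, cytochrome c1 (-0.81, adjusted p = 0.00325). Uqcrc1, the other core subunit, ran from 464 to 1544 CPM in DTR_PBS and from 1509 to 2251 CPM in WT_PBS hearts, and the groups overlapped (-0.89, adjusted p = 0.00384). The small subunit Uqcr10 did not pass (-0.43, adjusted p = 0.085) and did without DTR_PBS 3 (-0.52, adjusted p = 0.0479) or DTR_PBS 6 (-0.54, adjusted p = 0.0322). Cycs, cytochrome c itself, had 41.0, 48.2 and 57.5 CPM as lowest, median and highest level in DTR_PBS hearts, against 53.1, 91.7 and 161 CPM in WT_PBS hearts, and was called lower (-1.02, SE 0.32, adjusted p = 0.013; -0.70 and adjusted p = 0.091 without the 4 libraries over 30 M reads).

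Complex V had 12 of 15 genes called lower (median -0.80), 4 of 5 in the catalytic F1 part (median -1.07) and 8 of 10 in the membrane part and stalk (median -0.78). Atp5b, the catalytic beta subunit (chr10:128083273-128090391, plus strand, GRCm38), had 1657, 2840 and 3724 CPM as lowest, median and highest level in DTR_PBS hearts, against 5232, 5907 and 7264 CPM in WT_PBS hearts, without overlap (-1.16, SE 0.21, adjusted p = 0.00014). Its partner Atp5a1, the alpha subunit, ran from 1362 to 3259 CPM in DTR_PBS and from 4160 to 5913 CPM in WT_PBS hearts (-1.07, adjusted p = 0.000598). In the stalk, Atp5j (-1.21, adjusted p = 0.000325) and Atp5h (-1.06, adjusted p = 0.000155) also separated the groups. Of the 3 genes for the c subunit of the rotor ring, Atp5g1 (-0.68, adjusted p = 0.0224) and Atp5g3 (-0.80, adjusted p = 0.00601) were called lower and Atp5g2 was not (-0.36, adjusted p = 0.156). Atp5g1 lost its call without DTR_PBS 2 (-0.56) or DTR_PBS 4 (-0.62), at adjusted p up to 0.0625. The delta subunit Atp5d (-0.42, adjusted p = 0.188) and Atp5l (-0.41, adjusted p = 0.21) did not pass either. Outside the complexes, Atp5s was called lower (-1.06, adjusted p = 0.00943) and Atp5sl was not (-0.30, adjusted p = 0.338).

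Complex IV was the most mixed, with 13 of 17 genes called lower, 1 higher and 3 not called (median -0.75). Cox7a1, the muscle form of subunit VIIa (chr7:30184171-30186028, plus strand, GRCm38), had 160, 253 and 416 CPM as lowest, median and highest level in DTR_PBS hearts, against 618, 660 and 879 CPM in WT_PBS hearts. The groups did not overlap, and the fold change was the lowest of complex IV (-1.31, SE 0.22, adjusted p = 7.73e-05). Cox7a2l gave -1.13 (adjusted p = 8.88e-05), and Ndufa4, a late-bound subunit of complex IV, -1.02 (adjusted p = 0.000249), both without overlap. Cox4i2, a form of subunit IV known from lung, had only 3.28 to 8.97 CPM in DTR_PBS and 9.51 to 14.9 CPM in WT_PBS hearts, and these ranges did not overlap (-1.09, SE 0.20, adjusted p = 0.000194). Cox5a (-0.77, adjusted p = 0.0245) and Cox6b1 (-0.66, adjusted p = 0.00607) were called lower, with overlap. The Cox5a call was lost without WT_PBS 3 (-0.71), WT_PBS 4 (-0.70), DTR_PBS 1 (-0.63) or DTR_PBS 2 (-0.65), at adjusted p up to 0.0663. Ndufa4l2, a relative of Ndufa4, was also called lower (-0.57, adjusted p = 0.018), but not without WT_PBS 4 (-0.45, adjusted p = 0.0653) or DTR_PBS 1 (-0.47, adjusted p = 0.0555), and Cox6b2, at 0.434 to 3.99 CPM in DTR_PBS and 1.16 to 2.36 CPM in WT_PBS hearts, was not (-0.53, adjusted p = 0.373).

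Cox6a1, the widely expressed form of subunit VIa (chr5:115345642-115348981, minus strand, GRCm38), ran the other way. Its levels in DTR_PBS 1 to 6 were 113, 116, 193, 175, 197 and 192 CPM, against 106, 110, 114, 115, 96.2 and 80.8 CPM in WT_PBS 1 to 6. DTR_PBS 1 and 2 lay within or next to the WT_PBS range and the other injured hearts above it, and the gene was called higher (0.66, SE 0.18, adjusted p = 0.00504). Cox8a, the widely expressed form of subunit VIII, was at 106 to 187 CPM in DTR_PBS and 122 to 181 CPM in WT_PBS hearts, with a log2 fold change of 0.01 (SE 0.15, adjusted p = 0.97). Cox7a2, the widely expressed form of subunit VIIa, was called lower (-0.69, adjusted p = 0.00167), at 144 to 266.4 CPM in DTR_PBS and 266.5 to 357 CPM in WT_PBS hearts. Cox6a2, the muscle partner of Cox6a1 (chr7:128205436-128206366, minus strand, GRCm38), had 618, 2407 and 3015 CPM as lowest, median and highest level in DTR_PBS hearts, against 2013, 3351 and 4187 CPM in WT_PBS hearts. Its groups overlapped and the difference did not pass (-0.64, SE 0.29, adjusted p = 0.0742); it passed without WT_PBS 6 (-0.74, adjusted p = 0.0419), DTR_PBS 5 (-0.74, adjusted p = 0.0492) or DTR_PBS 6 (-0.77, adjusted p = 0.0377).

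The balance of muscle to widely expressed form was compared as the log2 ratio of both genes within each library, taken from log2 CPM with a prior count of 2. Library scaling cancels in this ratio except through the prior count, which weighs on genes with few reads. Differences in the ratio were tested by an exact two-sided permutation test over 6 against 6 hearts, for which the smallest p is 0.00216, and adjusted over 14 comparisons (7 pairs, with and without drug). The Cox6a2 to Cox6a1 ratio was 3.52 ± 0.56 in DTR_PBS and 4.94 ± 0.20 in WT_PBS hearts (SD, n = 6 each), a difference of -1.42 (exact permutation test, adjusted p = 0.00606). The Cox7a1 to Cox7a2 ratio was 0.46 ± 0.23 in DTR_PBS and 1.12 ± 0.13 in WT_PBS hearts, a difference of -0.67 (exact permutation test, adjusted p = 0.00606). The Cox8b to Cox8a ratio was 1.65 ± 0.51 in DTR_PBS and 2.69 ± 0.18 in WT_PBS hearts, a difference of -1.04 (exact permutation test, adjusted p = 0.00606). In all 3 pairs the DTR_PBS and WT_PBS hearts did not overlap. Cox8b, the muscle form of subunit VIII, was itself called lower (-0.92, SE 0.25, adjusted p = 0.00401), with 175 to 715 CPM in DTR_PBS and 660 to 1105 CPM in WT_PBS hearts.

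The same 3 ratios were lower in injured hearts given the drug. For Cox6a2 to Cox6a1 the ratio was 4.12 ± 0.67 in DTR_PYR and 5.15 ± 0.15 in WT_PYR hearts, a difference of -1.02 (exact permutation test, n = 6 each, adjusted p = 0.00606). For Cox7a1 to Cox7a2 it was 0.77 ± 0.17 in DTR_PYR and 1.27 ± 0.13 in WT_PYR hearts, a difference of -0.50 (exact permutation test, adjusted p = 0.00606). Neither pair overlapped between these groups. For Cox8b to Cox8a it was 2.25 ± 0.49 in DTR_PYR and 2.82 ± 0.18 in WT_PYR hearts, and the difference of -0.57 did not pass after adjustment (exact permutation test, adjusted p = 0.0707); it passed without DTR_PYR 4 (-0.68, exact permutation test, adjusted p = 0.0303), without DTR_PYR 6 (-0.70, adjusted p = 0.0202) and without DTR_PYR 4, 5 and 6 (-0.95, adjusted p = 0.0278). The other 4 pairs passed no threshold in either comparison with all hearts: Cox4i2 to Cox4i1 differed by -0.01 without and -0.31 with the drug, Cox6b2 to Cox6b1 by 0.23 and -0.76, Ndufa4l2 to Ndufa4 by 0.53 and -0.17, and Atp5g1 to Atp5g3 by 0.08 and -0.11. Cox6b2 was listed at 0 in DTR_PYR 3, and without that heart the Cox6b2 to Cox6b1 difference with the drug was -0.15. With the drug, the Cox4i2 to Cox4i1 difference passed without DTR_PYR 2 (-0.49, exact permutation test, adjusted p = 0.0253) and without the libraries under 3 M reads (-0.49, adjusted p = 0.0444). Cox4i1, the main form of subunit IV, had no symbol in the deposited table and so is no member of the 83; it had 391 to 866 CPM in DTR_PBS and 1152 to 1619 CPM in WT_PBS hearts (-1.05, adjusted p = 0.000182).

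**Figure D2:**
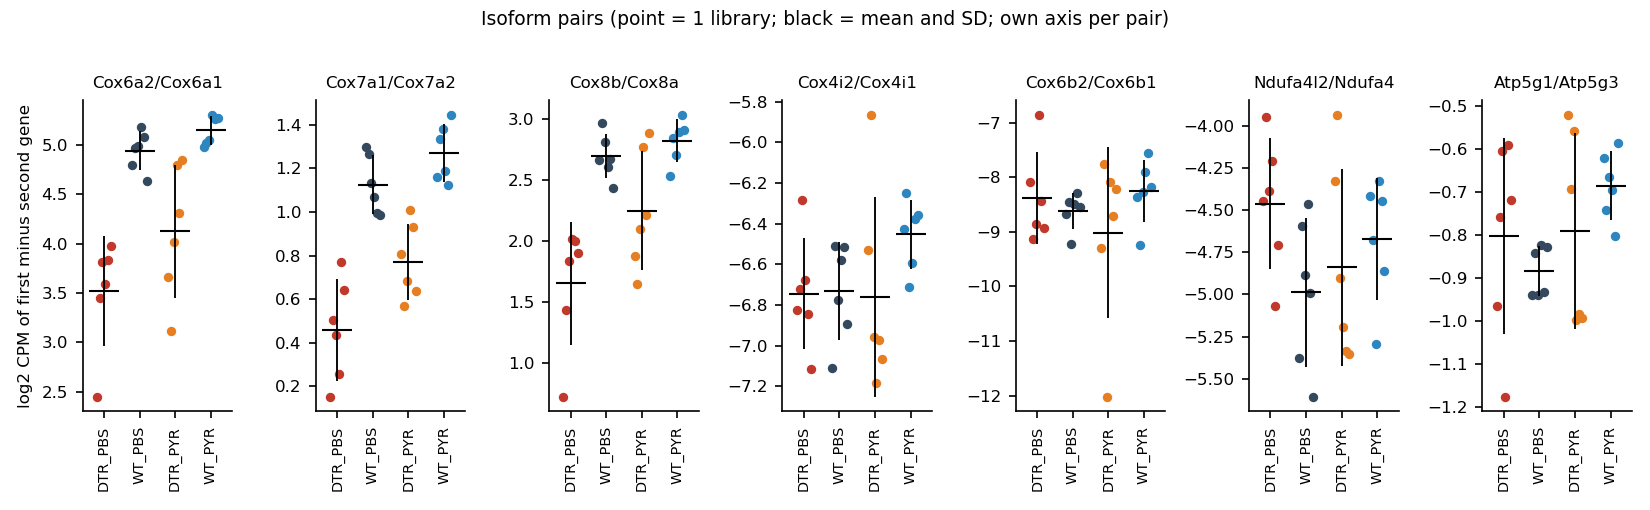
Log2 ratio of the counts of the muscle or minor form to those of its partner, for each of 7 pairs, with 1 point per heart in the 4 groups and bars for the mean and SD of 6 hearts. The Cox6a2 to Cox6a1, Cox7a1 to Cox7a2 and Cox8b to Cox8a ratios sit lower in DTR than in WT hearts, with no overlap under PBS.

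The promoter windows of the muscle forms Cox8b and Cox7a1 and the widely expressed forms Cox6a1, Cox8a and Cox7a2 are shown because the muscle to widely expressed ratios were lower in injured hearts. RefSeq windows of 250 bases before to 50 bases after the annotated start were found for 69 of the 83 genes, in build GRCm38.p6. Cox6a2, the muscle partner of Cox6a1, was not among these 69 genes. Short motifs were searched on both strands, and each matched stretch below is in capitals: GCGCA and GCGC with any base N between them, the NRF1 motif; CCGGAAG, read CTTCCGG on the other strand, the GABP motif; TCAAGGTCA, the ERR motif; AAGATGGCG, the YY1 motif; and CAGCTG, a muscle E-box. No matches overlap in the windows printed, which read along the gene's own strand.
Cox6a1, chr5:115348909-115349208, minus strand: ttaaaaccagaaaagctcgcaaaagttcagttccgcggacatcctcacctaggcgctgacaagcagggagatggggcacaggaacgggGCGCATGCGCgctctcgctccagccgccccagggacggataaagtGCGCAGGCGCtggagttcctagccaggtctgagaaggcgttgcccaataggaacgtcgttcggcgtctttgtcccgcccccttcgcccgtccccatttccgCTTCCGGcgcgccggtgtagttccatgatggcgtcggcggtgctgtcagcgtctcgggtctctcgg
Cox8a, chr19:7217567-7217866, minus strand: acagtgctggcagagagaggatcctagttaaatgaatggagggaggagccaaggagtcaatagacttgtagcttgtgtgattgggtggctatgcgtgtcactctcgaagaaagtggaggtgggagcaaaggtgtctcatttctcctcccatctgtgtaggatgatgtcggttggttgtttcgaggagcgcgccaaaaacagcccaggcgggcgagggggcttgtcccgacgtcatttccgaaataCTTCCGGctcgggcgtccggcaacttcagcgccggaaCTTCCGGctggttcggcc
Cox7a2, chr9:79759804-79760103, minus strand: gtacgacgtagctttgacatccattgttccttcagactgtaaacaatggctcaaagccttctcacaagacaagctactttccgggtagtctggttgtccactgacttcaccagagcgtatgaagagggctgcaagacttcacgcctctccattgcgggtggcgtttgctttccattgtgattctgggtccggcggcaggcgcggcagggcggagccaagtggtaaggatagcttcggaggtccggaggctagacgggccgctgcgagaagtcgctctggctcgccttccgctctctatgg
Cox8b, chr7:140900397-140900696, minus strand: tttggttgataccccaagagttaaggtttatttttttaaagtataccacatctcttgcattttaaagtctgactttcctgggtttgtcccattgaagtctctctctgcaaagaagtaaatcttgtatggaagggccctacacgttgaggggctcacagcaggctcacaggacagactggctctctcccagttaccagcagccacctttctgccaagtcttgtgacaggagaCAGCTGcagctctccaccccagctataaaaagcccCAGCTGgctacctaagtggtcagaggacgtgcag
Cox7a1, chr7:30183921-30184220, plus strand: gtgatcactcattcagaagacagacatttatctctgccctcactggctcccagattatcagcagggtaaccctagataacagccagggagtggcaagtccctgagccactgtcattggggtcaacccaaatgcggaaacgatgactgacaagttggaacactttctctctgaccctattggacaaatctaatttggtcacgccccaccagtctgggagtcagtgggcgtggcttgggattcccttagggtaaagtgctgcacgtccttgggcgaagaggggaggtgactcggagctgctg
The Cox6a1 window holds the NRF1 and GABP letters, the Cox8a window the GABP letters and the Cox8b window the E-box, and the Cox7a1 and Cox7a2 windows hold none of these.

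Across the 75 windows of the 69 genes, the NRF1 letters were in 24%, against 4.6% of the 32851 windows of all genes and 8.94% of the 13760 windows of tested genes. The GABP letters were in 21.3%, against 8.86% of all and 15.5% of tested-gene windows, and the YY1 letters in 12%, against 1.4% and 2.67%. The E-box letters were in 8.0%, against 16.3% and 15.7%, and the ERR letters in 2.67%, against 0.423% and 0.269%. The median log2 fold change under injury with vehicle was -0.81 in the 17 genes with and -0.85 in the 52 genes without the NRF1 letters, and -0.76 in the 16 with and -0.84 in the 53 without the GABP letters. Of the 17 with the NRF1 letters 13 were called lower, and of the 52 without them 44. Of the 16 with the GABP letters 13 were called lower, and of the 53 without them 44. For the E-box letters the medians were -0.86 in the 6 genes with and -0.80 in the 63 without them. For the YY1 letters they were -0.88 in 8 and -0.81 in 61 genes, and for the ERR letters -0.65 in 2 and -0.84 in 67. Genes called lower with and without the letters were 6 and 51 for the E-box, 6 and 51 for YY1, and 2 and 55 for ERR. These are descriptions of letters in a window and show no binding.

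Hearts of the vehicle-treated injury group differed widely among themselves. Set against the mean of WT_PBS hearts, the median log2 difference over the 83 genes was -1.58, -1.33, -0.66, -0.94, -0.47 and -0.34 in DTR_PBS 1 to 6. Between 71 and 82 of the 83 genes were below the WT_PBS mean in each of these hearts. In WT hearts of either treatment the same median lay between -0.17 and 0.22. The order of the DTR_PBS hearts was the same in complexes I to V, with DTR_PBS 1 lowest and DTR_PBS 6 highest in each.

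Several other measures are given here. By tag letter, the medians of DTR_PBS hearts were -1.58 and -0.94 in the 2 U animals and -1.33 to -0.34 in the 4 V animals. These ranges overlapped. The marker values below are by group and were not set against the medians per heart. Fitted within U animals alone, 75 of the 83 genes were called lower with a median of -1.23, where 20.5% of all genes fitted were called lower. Within V animals alone, 21 were called lower with a median of -0.56, where 7.58% of all genes were. With the tag letter as a covariate, 72 were called lower with a median of -0.96, where 23.2% of all genes were. Of the 12 cardiomyocyte markers, 8 were called lower, with a median log2 fold change of -0.88, from -1.91 for Myl2 to -0.05 for Ttn. Macrophage markers summed to 739 to 2292 CPM in DTR_PBS and 269 to 384 CPM in WT_PBS hearts, with 10 of 10 called higher. Of 8 fibroblast markers 5 were called higher, and of 8 endothelial markers 7 were called lower. The part of cell makeup, tag letter or depth in the change of the chain genes was not tested.

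**Figure D3:**
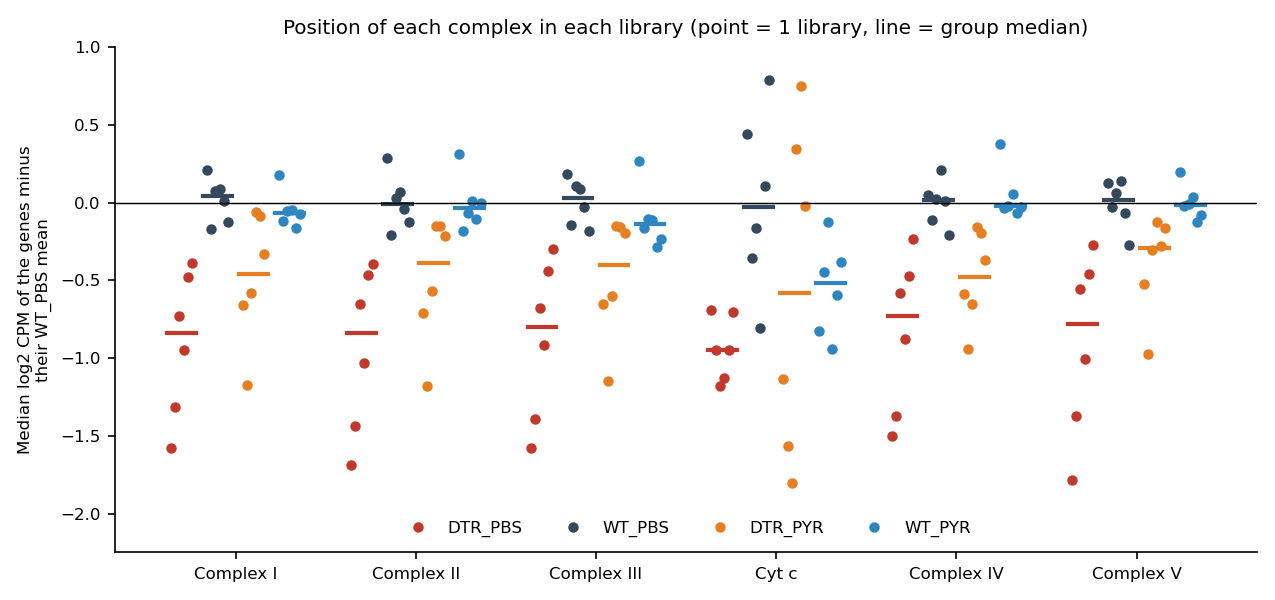
Median log2 CPM of the genes of each complex minus their WT_PBS mean, with 1 point per library, coloured by group, and a line at the median of the group. Most DTR hearts lie below the WT hearts in complexes I to V, from -1.58 to -0.39 in DTR_PBS for complex I, with part of the DTR_PYR hearts near 0.

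The second comparison asks the same under pyridostigmine (DTR_PYR minus WT_PYR). Its groups share no library with those of the first. Both comparisons came from a single fit to all libraries with a shared estimate of the spread, so their calls are not independent. The direction was mostly the same and the size mostly smaller: the median log2 fold change of the 83 genes was -0.38 (all tested genes 0.04), 77 had the same sign in both comparisons, and 80 had the smaller size under PYR. The median was -0.25 with total-count scaling and -0.24 without the libraries under 3 M reads. Smaller sizes were not confined to the chain. The interquartile range of all tested genes was -0.29 to 0.43 under PYR, against -0.51 to 0.55 under vehicle. Shared signs and smaller sizes were counted for the 83 genes only. By edgeR's adjusted p, 6 of the 83 were called lower, where 4.17% of all tested genes were called lower, and 1 higher, where 8.06% of all tested genes were. In 17 genes all DTR_PYR hearts lay below all WT_PYR hearts (3.18% of all tested genes). Across the 83 genes the fold changes of both comparisons had a Spearman correlation of 0.42 and a Pearson correlation of 0.43; genes are not independent replicates. The 7 called genes were also called, in the same direction, under vehicle. As 70 of the 83 were called lower under vehicle, most lower calls would recur in any case. Shared calls over all tested genes were not counted.

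Cox4i2 had the smallest p: its levels were 6.24 to 9.47 CPM in DTR_PYR and 11.6 to 18.8 CPM in WT_PYR hearts, without overlap (-0.87, SE 0.20, adjusted p = 0.00836). Atp5b also separated the groups, with 2321, 3787 and 4696 CPM as lowest, median and highest level in DTR_PYR hearts, against 5108, 5518 and 7051 CPM in WT_PYR hearts (-0.63, SE 0.21, adjusted p = 0.046). The other genes called lower overlapped: Ndufa4l2 (-0.72, adjusted p = 0.0187), Ndufb11, a membrane-arm subunit of complex I (-0.57, adjusted p = 0.0364), Cox7a1 (-0.68, adjusted p = 0.0416) and Sdha (-0.68, adjusted p = 0.0469). Sdha showed how the treated hearts divided, with 561, 382, 550, 1142, 1224 and 836 CPM in DTR_PYR 1 to 6 and 1171 to 1332 CPM in WT_PYR hearts. DTR_PYR 4 and 5 lay within or next to the uninjured range and the other 4 below it. Others of small p in their complex were Ndufv3 (-0.59), Sdhc (-0.50), Sdhb (-0.46), Uqcrq (-0.51), Uqcr11 (-0.49) and Atp5h (-0.44), at adjusted p of 0.0566 to 0.132.

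Cox6a1 was again the gene called higher (0.58, SE 0.18, adjusted p = 0.0409). It had 112 and 114 CPM in DTR_PYR 4 and 5, 159 to 232 CPM in the other 4 DTR_PYR hearts and 97.7 to 151 CPM in WT_PYR hearts, so that DTR_PYR 4 and 5 lay inside the uninjured range and the others above it. Cox8a gave -0.03 (adjusted p = 0.923). Among the anchor subunits, Ndufs1 (-0.50, adjusted p = 0.162), Ndufv1 (-0.61, adjusted p = 0.0565), Uqcrc1 (-0.59, adjusted p = 0.0951) and Atp5a1 (-0.54, adjusted p = 0.113) did not pass, though all Ndufv1 levels of DTR_PYR hearts were below those of WT_PYR hearts. Cycs was at 42.2, 31.4, 26.5, 118, 157 and 91.8 CPM in DTR_PYR 1 to 6 and 48.3 to 85.4 CPM in WT_PYR hearts. It was thus below every WT_PYR heart in DTR_PYR 1 to 3 and above every one in DTR_PYR 4 to 6, with a log2 fold change of 0.29 (adjusted p = 0.577) that was -0.94 (adjusted p = 0.0092) without DTR_PYR 4, 5 and 6. Uqcrb, a small subunit of complex III, and Atp5j gave 0.46 (adjusted p = 0.302) and -0.02 (adjusted p = 0.964).

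These calls moved with the libraries used. When DTR_PYR 4, 5 and 6 were left out, which was decided with the data in view, 47 of the 83 genes were called lower and the median was -0.71; 15.4% of all genes fitted were then called lower. Leaving out 1 library at a time gave 2 to 13 genes called lower, where 1.11 to 6.53% of all tested genes were: 2 without WT_PYR 1, 4 or 6 or DTR_PYR 1, 2 or 3, 3 without WT_PYR 2 or 3, 11 without DTR_PYR 4, and 13 without DTR_PYR 5 or DTR_PBS 1. Over the 24 such fits, Cox4i2 and Ndufa4l2 were called lower in each, and Ndufb11 lost its call in 6, Cox7a1 in 9, Sdha in 15 and Atp5b in 16, at adjusted p up to 0.122 and log2 fold changes of -0.49 or lower. Cox6a1 lost its call without WT_PYR 2, 3, 4, 5 or 6 or DTR_PYR 1, 2 or 3, at log2 fold changes that stayed positive. The medians per heart were -0.63, -1.15, -0.58, -0.11, -0.16 and -0.23 in DTR_PYR 1 to 6, and DTR_PYR 1 and 2 were the U animals. Within U animals 51 genes were called lower (median -0.84), where 14.2% of all genes fitted were. Within V animals 0 were (median -0.17), but there the fit called 0% of all genes, and 1 of the 83 had an unadjusted p under 0.05. Cardiomyocyte markers summed to 44989 to 100256 CPM in DTR_PYR and 106637 to 119520 CPM in WT_PYR hearts, with 1 of 12 called lower. Macrophage markers summed to 368 to 2253 CPM in DTR_PYR and 235 to 411 CPM in WT_PYR hearts, with 10 of 10 called higher. Of the 8 fibroblast markers 6 were called higher, and of the 8 endothelial markers 4 were called lower. Their part in the values of the chain genes was not tested.

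The third comparison set drug against vehicle in injured hearts (DTR_PYR minus DTR_PBS). All 83 genes had a positive log2 fold change (with total-count scaling 3 were negative), with a median of 0.41 and a range of 0.03 to 0.84, but 0 were called by edgeR, where 0% of all tested genes were. At an unadjusted p under 0.05 there were 34 of the 83, where 19.4% of all tested genes were. DESeq2 called 1 of the 83 higher, where it called 1.11% of all tested genes higher, and limma voom 2, where it called 4.04% higher. The 3 genes with the smallest p were Ndufb9 (0.84, SE 0.23, adjusted p = 0.131), Ndufc2 (0.73, adjusted p = 0.134) and Ndufs1 (0.73, adjusted p = 0.139). Ndufb9 had 206, 458 and 586 CPM as lowest, median and highest level in DTR_PYR hearts, against 125, 248 and 346 CPM in DTR_PBS hearts, and the groups overlapped. The medians by complex were 0.39 for complex I, 0.42 for II, 0.41 for III, 0.36 for IV and 0.44 for V, and Cycs gave 0.68. Cox6a1 (0.05) and Cox8a (0.03) were at the low end. With total-count scaling the median was 0.30. Cell type markers had differences of their own, none called: all 12 cardiomyocyte markers were positive (median 0.44) and all 8 endothelial markers were (median 0.27), while all 10 macrophage markers (median -0.75) and all 8 fibroblast markers (median -0.53) were negative. Their part in the differences of the chain genes was not tested.

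The shared direction changed with the hearts that stood apart. Without DTR_PYR 4, 5 and 6 the median was 0.09 and 24 of the 83 genes were negative, and without the 4 libraries over 30 M reads the median was 0.23 and 4 were negative. Leaving out DTR_PYR 2, the lowest of the treated hearts, gave 23 genes called higher, where 7.61% of all tested genes were called higher. Leaving out DTR_PBS 6, the highest of its group, gave 1, where 0.136% of all tested genes were. Without the libraries under 3 M reads, which are DTR_PBS 4 and DTR_PYR 2 and 3, 16 were called higher, where 6.51% of all genes fitted were.

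In uninjured hearts (WT_PYR minus WT_PBS) the drug gave a median of -0.04 with 48 negative genes (0.01 and 36 with total-count scaling) and 0 of 83 called by edgeR, where 0% of all tested genes were. At an unadjusted p under 0.05 there were 3 of the 83, where 3.11% of all tested genes were: Ndufb2 (-0.85), Uqcrb (-0.75) and Atp5j (-0.57), each with an adjusted p of 0.998. The interaction, which asks whether the drug effect differed between injured and uninjured hearts, had a median of 0.47 and 0 of 83 called, where 0% of all tested genes were; at an unadjusted p under 0.05 there were 21, where 7.96% of all tested genes were. The smallest p values were those of Atp5j (1.19, SE 0.34, adjusted p = 0.512), Ndufs1 (1.11, adjusted p = 0.512) and Ndufb6 (0.79, adjusted p = 0.563). The interaction median was 0.28 with total-count scaling, 0.27 without the 4 libraries over 30 M reads and 0.14 without DTR_PYR 4, 5 and 6. The base composition of the transcripts moved with these differences: across the 83 genes the Spearman correlation of GC content with the log2 fold change was 0.66 in uninjured hearts, -0.58 for the interaction and -0.23 for the drug in injured hearts, and it was 0.28 for injury with vehicle and -0.31 for injury with drug. Over the 15399 tested genes with a GC value the same correlations were 0.45 in uninjured hearts, -0.09 for the interaction, 0.16 for the drug in injured hearts, -0.13 for injury with vehicle and -0.29 for injury with drug, so that the sign for the 83 genes was opposite for the drug in injured hearts and for injury with vehicle. With a GC offset per library, 70 of the 83 genes were called lower and 1 higher for injury with vehicle. Of all tested genes 23.2% were then called lower and 24.5% higher. For injury with drug 8 were called lower and 1 higher, where 4.19% and 9.53% of all tested genes were. Genes are not independent, and the libraries' depth and GC content differ, so these correlations are descriptions.

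**Figure D4:**
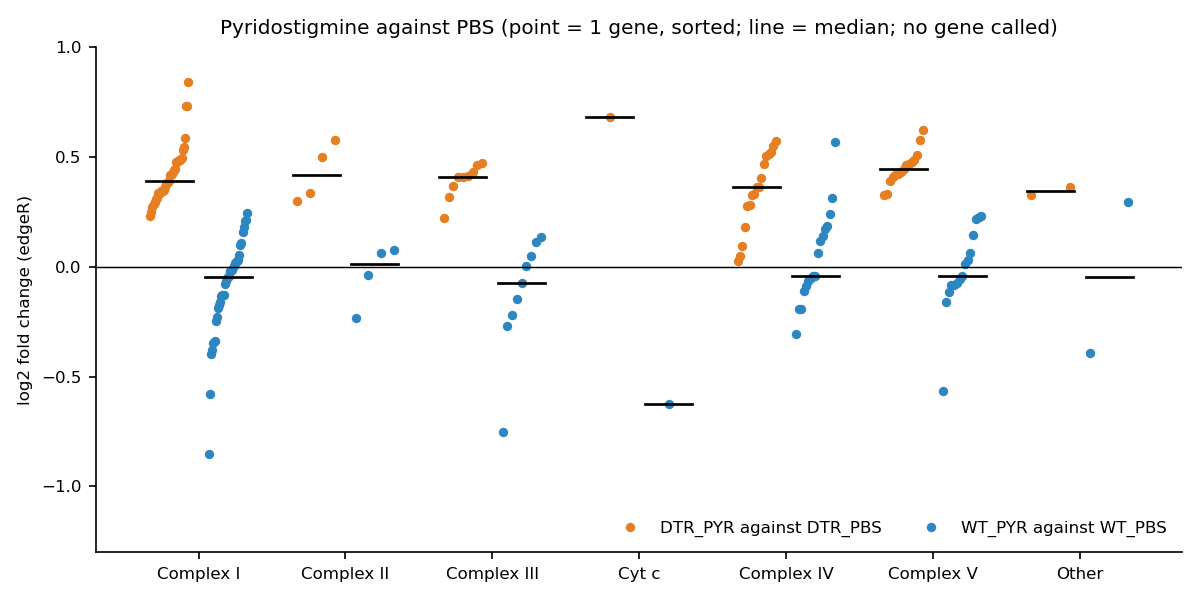
Log2 fold change of each of the 83 genes for PYR against PBS, in injured hearts and in uninjured hearts, by complex, with 1 point per gene and a line at the median. With TMM scaling all 83 are above 0 in injured hearts and 48 are below 0 in uninjured hearts, against 3 and 36 below 0 with total-count scaling; none passed an adjusted p of 0.05.

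The chain needs more than its subunits, and other genes of the pathway were taken from written lists. Of all tested genes, 21.6% were called lower and 21.3% higher under injury with vehicle, and 4.17% and 8.06% under injury with drug. Factors that assemble complex I had 11 of 16 genes called lower under injury with vehicle and 0 higher, with a median of -0.66; they included Ndufaf7 (-0.87, adjusted p = 0.000536), Ndufaf8 (-0.98, adjusted p = 0.000541) and Foxred1 (-0.75, adjusted p = 0.000659). Of 4 factors for complex II, Sdhaf4 (-1.36, adjusted p = 0.000204) and Sdhaf2 (-0.57, adjusted p = 0.00239) were called lower, and of 6 for complex III, Uqcc1 (-0.55, adjusted p = 0.0237) and Uqcc2 (-0.42, adjusted p = 0.0293). Of 4 for complex V, Atpaf1, which helps to build the F1 part, was called lower (-1.06, adjusted p = 0.000868). The shares called lower for complexes III and V, at 33.3% and 25%, were near that of all tested genes.

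Complex IV assembly factors were called in both directions. Of 20 tested, 6 (30%) were called lower, among them Coa5 (-0.77, adjusted p = 0.00106) and Coa7 (-0.89, adjusted p = 0.00137), and 2 were called higher. Of all tested genes 21.6% were called lower and 21.3% higher, and of the complex IV subunits 76.5% were called lower. Cox18, which inserts the tail of a mitochondrially encoded subunit into the membrane, had 10.4 to 23.4 CPM in DTR_PBS and 8.43 to 11.1 CPM in WT_PBS hearts (0.76, adjusted p = 0.0032). Under PYR it had 10.6 to 23.4 CPM in DTR_PYR and 9.22 to 11 CPM in WT_PYR hearts and was called higher again (0.75, adjusted p = 0.0183). Cox19 was the other gene called higher under vehicle (0.36, adjusted p = 0.0357). Sco2 and Pet117 were listed with 0 reads in all libraries.

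Coenzyme Q synthesis had 9 of 13 genes called lower under injury with vehicle, where 21.6% of all tested genes were. Coq8a, a kinase-like protein needed for coenzyme Q synthesis, gave -1.22 (adjusted p = 0.00173), Coq10a -1.16 (adjusted p = 0.000503) and Coq2 -0.96 (adjusted p = 0.000148), each without overlap. Under PYR Coq10a was called lower (-0.74, adjusted p = 0.0431) and Coq10b higher (1.27, adjusted p = 0.0171), with Coq10b at 10.1 to 26.5 CPM in DTR_PYR and 4.68 to 10.3 CPM in WT_PYR hearts.

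Regulators of mitochondrial gene expression were called in both directions, with a share called lower near that of all tested genes. Of 19 tested, 6 (31.6%) were called lower and 2 higher under injury with vehicle. Of all tested genes 21.6% were called lower and 21.3% higher. Ppara, a nuclear receptor that drives fatty acid oxidation genes, had 9.15 to 25.9 CPM in DTR_PBS and 40.7 to 64.2 CPM in WT_PBS hearts (-1.67, adjusted p = 8.38e-05), and Lrpprc, which stabilises mitochondrial mRNA, gave -1.17 (adjusted p = 0.00026). Esrra, the estrogen-related receptor that acts on chain genes, gave -0.97 (adjusted p = 0.000558). Pprc1, a coactivator related to Ppargc1a, had 61.8 to 122 CPM in DTR_PBS and 26.6 to 33.3 CPM in WT_PBS hearts, and was called higher (1.57, adjusted p = 5.03e-05), as it was under PYR (1.01, adjusted p = 0.011). Ppargc1a itself did not pass (-0.36, adjusted p = 0.394), nor did Nrf1 (0.24, adjusted p = 0.27) or Gabpa (0.31, adjusted p = 0.439).

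The 13 chain genes of the mitochondrial genome were read from polyadenylated RNA and have near-identical copies in the nuclear genome, so their counts are uncertain. Of these, mt-Nd4l had 23 reads and was not tested. The other 12 were all called lower under injury with vehicle, with a median of -1.47, and 0 were called under injury with drug (median -0.08). The share of counts was taken over all rows with the mt- prefix, of which these genes are only a part. It varied widely within groups, from 4.59 to 17.9% in DTR_PYR, 5.41 to 9.97% in DTR_PBS, 9.08 to 12.6% in WT_PYR and 6.01 to 25.6% in WT_PBS libraries. In DTR_PYR 1 to 6 the share was 6.03, 4.59, 5.61, 14.6, 17.9 and 12.7%. It was thus below every WT_PYR heart in DTR_PYR 1 to 3 and above every one in DTR_PYR 4 to 6. The median of -0.08 under injury with drug was taken over all DTR_PYR hearts together. mt-Nd1, for instance, ran from 5219 to 7613 CPM in DTR_PBS and from 6764 to 30139 CPM in WT_PBS hearts (-1.47, adjusted p = 0.00111), with overlap.

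**Figure D5:**
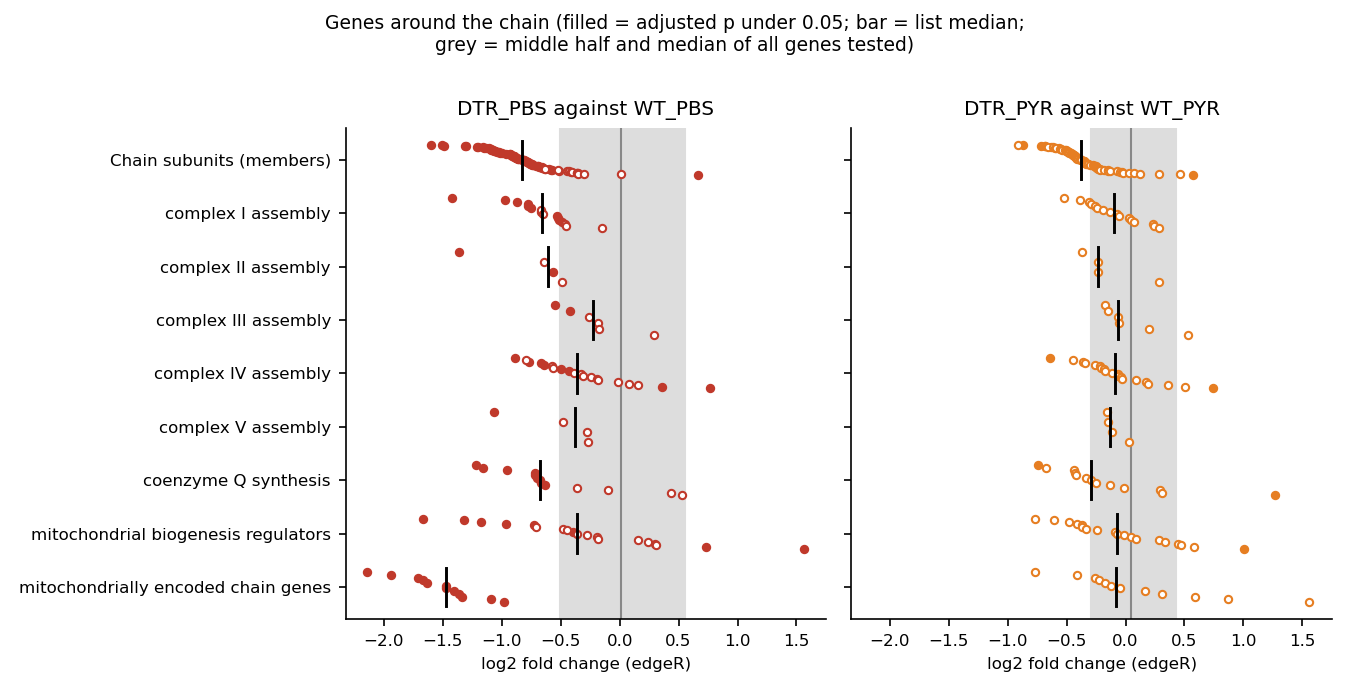
Log2 fold change of the genes of each list, in DTR_PBS against WT_PBS hearts (left) and in DTR_PYR against WT_PYR hearts (right); filled points passed an adjusted p of 0.05, a bar marks the median of the list, and grey marks the interquartile range and median of all tested genes. Under PBS the medians are -0.66 for complex I assembly and -1.47 for the mitochondrially encoded genes.

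Some of the 83 genes could share reads with others. The libraries were not strand-specific, and the loci of 13 of the genes overlap another gene with more than 5 CPM. Among them are Ndufs1 (Eef1b2), Ndufb11 (Rbm10), Ndufa4l2 (Shmt2), Ndufb2 (Braf) and Atp5j (Gabpa). Overlap was taken from gene start to gene end, introns included, and overlap of exons was not examined. Where exons overlap, reads of the partners cannot be told apart. Many chain subunits also have processed pseudogenes of near-identical sequence, between which counting could split reads.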

How the data were processed

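Counts per gene came from the unfiltered raw HTSeq count table that the authors deposited, with 24 libraries, each from an animal with its own tag. Tools named in the submitters' processing notes are edgeR, DESeq, HTSeq, Bowtie2, TopHat and TopHat2 2.1.1, with build GRCm38; what each did is not stated there. Per the labels' protocols, the single-end libraries of poly(A) RNA did not keep strand. The members, lists and tests were chosen with earlier results of these data known.

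Genes over 0.5 CPM in at least 6 libraries were fitted with the edgeR quasi-likelihood model on all libraries, with 1 coefficient per group and TMM scaling; p values are two-sided, with Benjamini-Hochberg adjustment over 15456 genes and a threshold of 0.05. CPM values are TMM-scaled, and log2 ratios use a prior count of 2. The fits were tested on simulated data. Titles show separate animals, and replicate numbers follow accession order. The deposited signal table of normalised values was not used.

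Genes named were the anchor subunits, isoform pairs, the 3 smallest p values per complex, members not called lower or called higher, and up to 3 called genes of each other list; other genes named were chosen after their values were seen. Alternatives were other scalings, filters and tests, each tag letter, libraries left out and a GC offset. Precision is limited by the depth of the shallowest libraries, at 1.88 and 2.39 M reads. Tests ran in edgeR 4.0.16, DESeq2 1.42.0 and limma 3.58.1 under R 4.3.3.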

Additional observations from a re-analysis of the deposited data

Results flagged for a closer look

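Single libraries that lay far from the other 5 of their group were searched for with Dixon's ratio, the gap to the nearest other library divided by the range of the group, at its 95% critical value for 6. Of 260 group checks 18 exceeded it, where chance gives about 13, or 1 in 20. WT_PYR 1 accounted for 11 of the 18.

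WT_PYR 1 was the highest of its group for Atp5g1 (0.715), Cox7a2 (0.693), Cyc1 (0.715), Sdhb (0.717), Sdhc (0.645) and Uqcr11 (0.698), and the lowest for Uqcrb (0.712). Its median over the subunits was also the highest of its group for complex I (0.664), complex III (0.67), complex IV (0.722) and all 83 genes (0.709). WT_PBS 1 was the highest of its group for Cox7a1 (0.719) and Uqcrh (0.64).

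WT_PYR 3 was the lowest of its group for Atp5sl (0.765), WT_PYR 2 for Cox6b2 (0.646) and DTR_PYR 2 for Uqcr10 (0.668). DTR_PBS 1 had the lowest Cox6a2 to Cox6a1 ratio of its group (0.657), and DTR_PYR 3, where Cox6b2 was listed at 0, the lowest Cox6b2 to Cox6b1 ratio (0.642). The causes were not tested.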

How the results depend on the processing

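No paired analysis was possible because the replicate numbers follow accession order and pair no animals. The count of genes called lower for injury with vehicle was 70 and stayed within 1.5 times of that, except within V animals (21). It was 64 to 73 with 1 library left out, where 18.3 to 22.5% of all tested genes were called lower. Within V animals 7.58% of all genes fitted were. The gene called higher was lost within U animals (0) and V animals (0), where 19.5 and 9.72% of all genes fitted were called higher. For injury with drug, 6 genes were called lower, where 4.17% of all tested genes were. Counts in other fits follow, each with the percentage of all genes fitted that was called lower. They were 2 with no filter (0.87%), 12 by DESeq2 (6.35%) and 19 with the tag letter as a covariate (7.93%). Within U animals there were 51 (14.2%) and within V animals 0 (0%). Without libraries under 3 M reads there were 0 (0.0726%). Without DTR_PYR 4, 5 and 6 there were 47 (15.4%), and without the 4 libraries over 30 M reads 24 (7.29%). With 1 library left out there were 2 to 13 (1.11 to 6.53%). The 1 called higher, where 8.06% of all tested genes were, became 0 in several fits. These are given with the percentage of all genes fitted that was called higher. They were no filter (3.33%), limma voom (2.56%), V animals alone (0%), only the groups compared (5.03%) and libraries under 3 M reads left out (0.574%). With 1 library left out the count was 0 to 1 (3.44 to 10.9%). Cycs for injury with drug reversed to -0.94 without DTR_PYR 4, 5 and 6. For the drug in injured hearts, 0 called higher became 1 by DESeq2, where 1.11% of all genes fitted were called higher, and 2 by limma voom (4.04%). It became 16 without libraries under 3 M reads (6.51%) and 0 to 23 with 1 library left out (0 to 7.61%). Within U animals the Cox6a2 to Cox6a1 ratio differed by -1.99 with vehicle and -1.82 with drug, the Cox7a1 to Cox7a2 ratio with vehicle by -0.95 (-0.47 within V), the Cox8b to Cox8a ratio with drug by -1.08, Cox4i2 to Cox4i1 with drug by 0.24, Cox6b2 to Cox6b1 with vehicle by 1.0, Ndufa4l2 to Ndufa4 with drug by 0.38, and Atp5g1 to Atp5g3 by -0.19 with vehicle and 0.070 with drug. With drug, the Cox8b to Cox8a difference was -0.95 without DTR_PYR 4, 5 and 6, where it passed, and -0.70 to -0.45 with 1 library left out, and that of Cox4i2 to Cox4i1 was -0.49 without libraries under 3 M reads and -0.49 to -0.22 with 1 library left out, passing in the first case and without DTR_PYR 2. The causes were not tested. The libraries over 30 M reads, DTR_PYR 4, 5 and 6 and the GC offset were chosen after seeing the data.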
